A study of Rattus norvegicus with 8 samples.

Results

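The genes described here are 9 that mark the stem cells and folliculostellate cells of the pituitary: the transcription factor genes Sox2, Sox9 and Klf4, the calcium-binding protein genes S100b and Anxa1, the filament gene Vim, the chemokine gene Cxcl12, the lipid carrier gene Fabp7 and the cadherin gene Cdh26. They were chosen by name, as the spots that are not controls and whose gene name on the array equals 1 of the 9. This gave 12 of 30367 probes, since S100b, Sox2 and Cxcl12 have 2 probes each. Of the 9 genes, 8 passed the filter on dim probes and are among the 17361 genes tested. Messenger RNA of the pituitary was measured in lactating Wistar rats on postpartum day 7, in 4 samples of dams exposed to TCDD and 4 samples of control dams, with 1 single-colour Agilent array per sample. TCDD is a dioxin that activates the aryl hydrocarbon receptor (AhR). The labels used here give no dose, route or day of exposure, and do not say what the control dams received. They also do not say whether each array holds 1 animal, and the p-values cover no more than the variation from sample to sample here.

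Folliculostellate cells are the non-hormonal, star-shaped cells of the anterior lobe. They carry S100 protein, are joined by gap junctions into a network between the endocrine cells, and secrete factors that act on them. The adult stem cells of the gland lie mainly along the cleft between the anterior and intermediate lobes, express Sox2 and in part Sox9, and overlap with folliculostellate cells in their markers. S100b, Vim and Fabp7 are also expressed by glia such as the pituicytes of the posterior lobe, and Vim and Cxcl12 by stromal cells, so none of these genes is exclusive to 1 cell type in RNA of the gland. In tissue of mixed cells, fewer cells of a type and less RNA per cell cannot be told apart.

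Arrays were similar in brightness, with 75th percentiles of processed signal of 765 to 932 and 71.1% to 73.9% of their spots well above background. Levels below are log2 of the processed signal over that percentile, so 0 stands for a signal at the 75th percentile of its own array. A level is not compared between probes, because probes differ in how strongly they bind. Hormone transcripts that define pituitary were above that mark: prolactin (Prl) stood at 8.17 ± 0.10 after TCDD and 8.17 ± 0.05 in controls, and Gh1, Pomc, Lhb and Tshb at means from 5.66 to 8.63. Fshb was lower, at 0.83 ± 0.36 after TCDD and 1.55 ± 0.43 in controls (limma, adjusted p = 0.38). All 4 TCDD arrays lay on 1 slide and all 4 control arrays on another, and for every difference that follows the slide and the treatment cannot be told apart. Of all genes, 0.0806% passed an adjusted p of 0.05 in limma (14 of 17361).

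The promoters of 4 genes are shown. S100b, Sox2 and Cxcl12 were chosen because they had the highest correlations among the genes over all 8 arrays. None of these correlations passed after adjustment, and they fell without control replicate 4. The promoters of Cxcl12 and Klf4 are also shown because both hold the short core of the site that AhR binds. Each runs from 250 bases before to 50 bases after the annotated start, 5′ to 3′ in the direction of the gene, from RefSeq on the GRCr8 build. Capitals mark every match, on either strand, to the AhR site core GCGTG, the SOX forms ACAAAG and ACAATG, the CCAAT box (CCAAT) and the TATA box (TATAAA).
S100b, chr20:12381032-12381331, minus strand: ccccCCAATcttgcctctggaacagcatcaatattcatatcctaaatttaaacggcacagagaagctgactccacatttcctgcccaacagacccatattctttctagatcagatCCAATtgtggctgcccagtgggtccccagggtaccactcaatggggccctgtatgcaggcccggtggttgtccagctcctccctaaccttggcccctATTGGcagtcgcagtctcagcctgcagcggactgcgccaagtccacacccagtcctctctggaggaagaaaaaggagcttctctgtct
Sox2, chr2:119464881-119465180, plus strand: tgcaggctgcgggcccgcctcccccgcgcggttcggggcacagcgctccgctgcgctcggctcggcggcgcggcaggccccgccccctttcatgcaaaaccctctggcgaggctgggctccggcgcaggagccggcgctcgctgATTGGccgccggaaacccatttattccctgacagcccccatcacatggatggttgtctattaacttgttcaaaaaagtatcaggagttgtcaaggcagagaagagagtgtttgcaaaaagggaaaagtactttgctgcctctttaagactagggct
Cxcl12, chr4:152060531-152060830, plus strand: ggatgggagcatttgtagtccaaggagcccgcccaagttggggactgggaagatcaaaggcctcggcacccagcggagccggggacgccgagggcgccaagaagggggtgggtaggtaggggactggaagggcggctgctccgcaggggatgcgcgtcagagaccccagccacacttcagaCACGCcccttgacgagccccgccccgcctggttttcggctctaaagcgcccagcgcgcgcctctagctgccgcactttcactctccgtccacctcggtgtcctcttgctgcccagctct
Klf4, chr5:75078543-75078842, minus strand: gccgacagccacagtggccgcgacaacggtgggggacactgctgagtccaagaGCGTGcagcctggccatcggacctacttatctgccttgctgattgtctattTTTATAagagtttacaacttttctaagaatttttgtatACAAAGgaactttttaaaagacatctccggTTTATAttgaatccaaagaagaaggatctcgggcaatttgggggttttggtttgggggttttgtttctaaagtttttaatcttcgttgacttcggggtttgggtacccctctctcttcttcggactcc
The table held promoters of 8 of the 9 genes, all but that of Sox9. The S100b window has 3 CCAAT boxes, the Sox2 window 1, and the Cxcl12 window 1 AhR core at position -69 from the start. The Klf4 window has 1 AhR core at position -197, 1 SOX match and 2 TATA matches. Of all 33469 promoters of this length, 29.7% hold the AhR core, 18.8% ACAAAG, 13.2% ACAATG, 37.5% CCAAT and 14.2% TATAAA. The longer AhR site TNGCGTG, which contains the core, occurs in 4.89% of promoters and in 0 of the 8. Sox2 and Cxcl12 have GC-rich windows, at 60.7% and 66.7% GC with 23 CpG each, where the median promoter has 51.7% and 7. The S100b and Klf4 windows have 54.0% and 45.0% GC. A match of letters is not evidence that a factor binds there.

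Sox2, a transcription factor that marks and maintains pituitary stem cells, did not differ between the groups beyond their spread. The probe used for it, at bases 120970327 to 120970386 of chromosome 2 (rn4, the build in the array files), stood at 1.41, 1.23, 1.52 and 1.07 on the TCDD arrays and at 1.51, 1.40, 1.45 and 1.07 on the control arrays. The groups overlapped, and replicate 4 was the lowest in each. The means were 1.31 ± 0.20 after TCDD and 1.36 ± 0.20 in controls (SD, n = 4 each). The difference was -0.05 on the log2 scale (SE 0.13, limma, adjusted p = 0.93, exact two-sided permutation p = 0.83), a 0.966-fold level with a 95% confidence interval from 0.786 to 1.19. The other Sox2 probe, 602 bases away, gave -0.11 (SE 0.10, adjusted p = 0.75).

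Klf4, a zinc-finger factor expressed in many epithelia and in stem cells, did not pass the threshold either. It stood at -3.33, -3.46, -3.10 and -3.47 on the TCDD arrays and at -2.99, -3.17, -3.10 and -3.22 on the control arrays (chromosome 5, 73446994 to 73447053, rn4). TCDD replicate 3 lay within the control range, and the other 3 TCDD arrays lay below it. The difference was -0.22 (SE 0.10), 0.859-fold with an interval from 0.734 to 1.01 (limma, adjusted p = 0.48, exact two-sided permutation p = 0.11).

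Sox9, a factor of progenitors that is often found with Sox2, could not be compared. Its only probe, at bases 102393822 to 102393881 of chromosome 10 (rn4), was well above background on 0 of 8 arrays, with processed signals from 2.16 to 3.47 after TCDD and from 2.25 to 8.59 in controls. The probe sequence is given because it shows which stretch was read: it begins with the start codon of Sox9, in capitals.
Sox9 probe: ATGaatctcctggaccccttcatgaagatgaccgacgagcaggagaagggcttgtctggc
Both groups were below the background limit, so no fold is given. The value says that this probe gave no usable signal, not that the transcript was absent.

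S100b, the protein by which folliculostellate cells are usually recognised, stood at 0.98, 1.15, 1.33 and 1.01 on the TCDD arrays and at 1.42, 1.25, 1.07 and 0.50 on the control arrays. Control replicate 1 was the highest and control replicate 4 the lowest of all 8, so the control arrays spanned the whole TCDD range. The means were 1.12 ± 0.16 after TCDD and 1.06 ± 0.40 in controls (SD, n = 4 each). The difference was 0.06 (SE 0.19, limma, adjusted p = 0.95, exact permutation p = 0.89), 1.04-fold with an interval from 0.767 to 1.41. Without control replicate 4 the difference was -0.13 (SE 0.12, adjusted p = 0.72), and without TCDD replicate 3 it was -0.01, so the sign rested on single arrays. The probe lies on chromosome 20 from 12791789 to 12791848, and the other S100b probe, 110 bases away, gave 0.17 (SE 0.22, adjusted p = 0.85).

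Anxa1, annexin A1, is a calcium- and phospholipid-binding protein that glucocorticoids induce and that folliculostellate cells release to restrain hormone secretion. It stood at 1.48, 0.95, 1.14 and 1.54 on the TCDD arrays and at 1.59, 1.36, 0.94 and 1.20 on the control arrays (chromosome 1, 223478470 to 223478529, rn4). Both groups spanned nearly the same range, with a highest-to-lowest ratio of 1.51 after TCDD and 1.57 in controls. The difference was 0.0081 (SE 0.17, limma, adjusted p = 0.99, exact permutation p = 0.97), 1.01-fold with an interval from 0.761 to 1.33.

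Vim, the intermediate filament protein vimentin of glial, stromal and endothelial cells, was the gene with the smallest unadjusted p of the 8. Its level was -0.59, -0.59, -0.65 and -0.77 on the TCDD arrays and -0.66, -0.82, -1.15 and -0.94 on the control arrays, averaged over the 10 spots per array, less 6 outlier spots over the 8 arrays (chromosome 17, 87851390 to 87851449, rn4). Control replicate 1 lay among the TCDD values and the other 3 control arrays lay below them. The means were -0.65 ± 0.09 after TCDD and -0.90 ± 0.21 in controls (SD, n = 4 each). The difference of 0.25 (SE 0.11), 1.19-fold with an interval from 0.999 to 1.41, did not pass (limma, unadjusted p = 0.051, adjusted p = 0.47, exact two-sided permutation p = 0.057).

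Fabp7, the brain-type fatty acid binding protein of glia and glial progenitors, varied more than the other members. It stood at -5.86, -4.79, -3.91 and -4.53 on the TCDD arrays and at -4.04, -3.83, -4.94 and -4.63 on the control arrays (chromosome 20, 36815975 to 36816034, rn4). TCDD replicate 1 was the lowest of the 8, and TCDD replicate 3 was above 3 of the 4 control arrays. The highest array was 3.84 times the lowest within the TCDD group and 2.16 times within the control group. Its SD was larger than that of 98.1% of all genes in the TCDD group and 94.6% in controls. The difference was -0.41 (SE 0.42, limma, adjusted p = 0.79, exact permutation p = 0.51), 0.751-fold with an interval from 0.387 to 1.46, so a change of 2-fold downward is within it. Processed signals lay between 14.5 and 61.5, well above background on all 8 arrays but dim.

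Cdh26, a cadherin of epithelial cells, was similarly dim, with processed signals between 28.0 and 52.3. It stood at -4.91, -4.69, -3.97 and -4.67 on the TCDD arrays and at -4.33, -4.66, -4.69 and -4.41 on the control arrays (chromosome 3, 167589496 to 167589555, rn4). TCDD replicates 3 and 1 were the highest and the lowest of all 8 arrays, and the control arrays lay between them. The difference was -0.04 (SE 0.20, limma, adjusted p = 0.97, exact permutation p = 0.91), 0.974-fold with an interval from 0.712 to 1.33.

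Cxcl12, a chemokine that holds and guides cells bearing its receptor Cxcr4, stood at -0.76, -0.95, -0.71 and -0.76 on the TCDD arrays. On the control arrays it stood at -0.56, -0.53, -0.56 and -1.27. All 4 TCDD arrays lay below control replicates 1 to 3 and above control replicate 4. The means were -0.79 ± 0.11 after TCDD and -0.73 ± 0.36 in controls (SD, n = 4 each), a difference of -0.06 (SE 0.17, limma, adjusted p = 0.94, exact permutation p = 0.74), 0.958-fold with an interval from 0.733 to 1.25. Without control replicate 4 the difference was -0.24 (SE 0.07, adjusted p = 0.30). This probe, on chromosome 4 from 153510285 to 153510344, is annotated to transcript variant 1. The other, from 153516205 to 153516264, is annotated to variant 3 and differed by -0.15 (SE 0.26, adjusted p = 0.895), with control replicate 4 again the lowest of the 8.

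**Figure D1:**
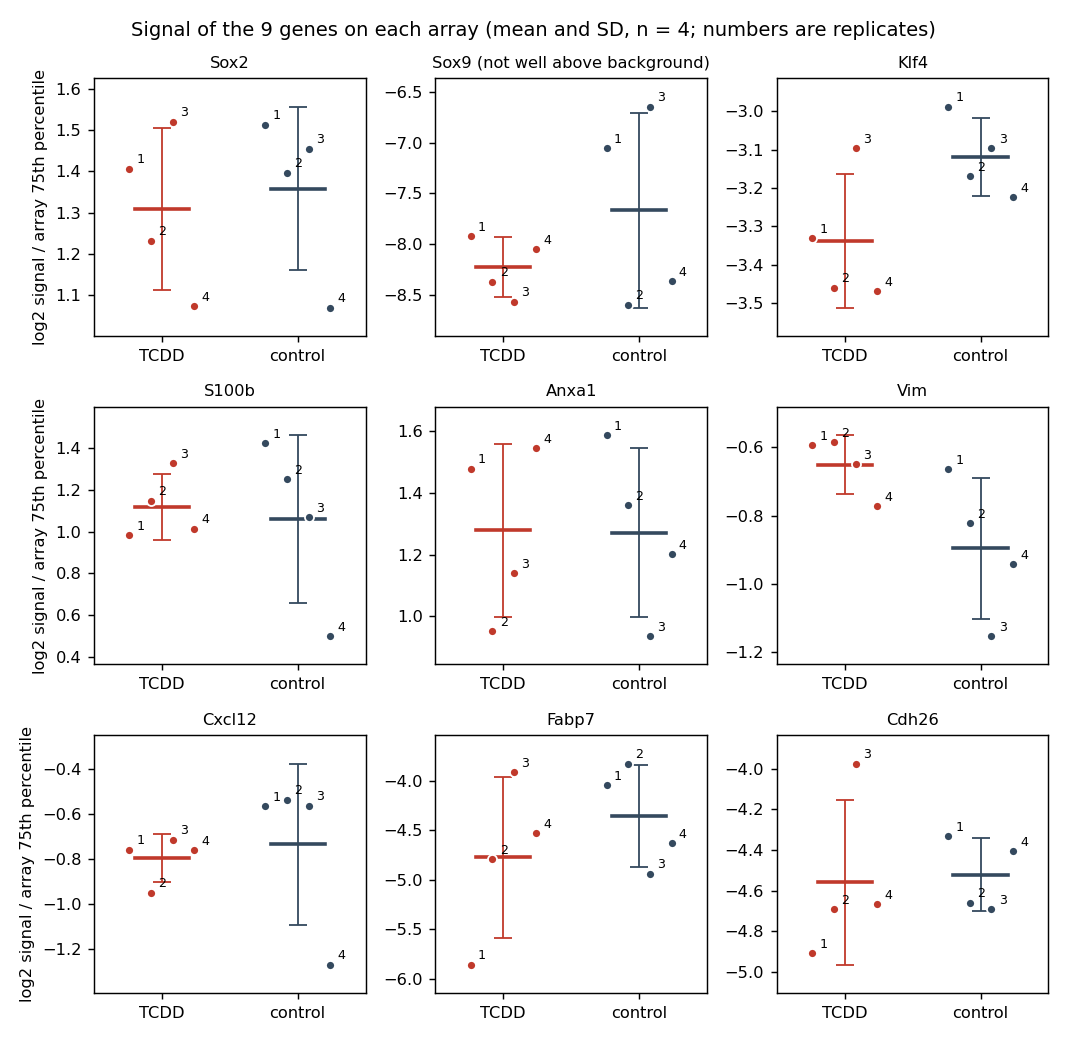
Log2 processed signal over the array's 75th percentile for each gene, with 1 point per array, numbered by replicate, and the mean and SD of each group (n = 4). TCDD and control values overlap in every panel, control replicate 4 is lowest for S100b and Cxcl12, and Sox9 was not well above background on any array.

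Across the 8 measured genes, 3 were higher and 5 lower after TCDD, with differences from -0.41 to 0.25 and a median of -0.04. Over all genes 43.6% were lower and the median difference was 0.02. In limma 0 of the 8 passed, 0 had an unadjusted p under 0.05 against 10.7% of all genes (7.76% higher and 2.95% lower), and 0 had groups that did not overlap against 7.10% of all genes. On simulated data over the 17361 genes, 80% of 50 genes changed 2-fold were called and 52% of 50 genes changed 1.5-fold, with 15 calls among unchanged genes. The simulation changed 50 genes at each of 1.5-, 2-, 4- and 8-fold, with independent noise and no slide effect. With 14 calls, the measured data set a stricter limit on the unadjusted p. These percentages may therefore be too high for the measured genes. By the probe used for each gene, the 95% interval lay within 1.5-fold in both directions for 7 of the 8 genes. These intervals are not adjusted for the number of genes. Fabp7 was the exception, with a lower end of 0.387-fold. By the other probe, the intervals of Cxcl12 (0.592 to 1.37) and S100b (0.793 to 1.59) reached beyond 1.5-fold, and that of Sox2 (0.797 to 1.08) did not.

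**Figure D2:**
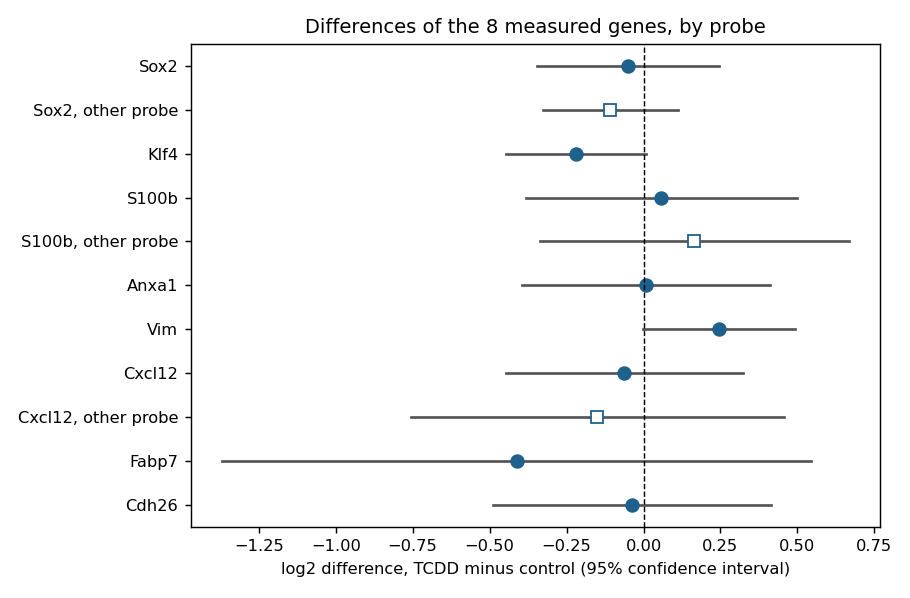
Log2 difference, TCDD minus control, with its 95% confidence interval for every probe that passed the filter, filled for the probe used for the gene and open for the other probe. Every interval includes 0, those of Vim (lower end -0.00089) and Klf4 (upper end 0.0075) only just, and Fabp7 has the widest.

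For the 3 genes with 2 probes, both probes followed the same arrays. Over 8 arrays Pearson's r was 0.98 for S100b (exact permutation p = 1.74e-04, Spearman's rho 0.98, p = 3.97e-04), 0.96 for Cxcl12 (p = 4.46e-04, rho 0.90, p = 0.0046) and 0.90 for Sox2 (p = 0.0021, rho 0.83, p = 0.015). Adjusted over the 3 genes these p-values were 5.21e-04, 6.70e-04 and 0.0021 for r. Without the 2 arrays farthest from the median of the first probe, r was 0.94, 0.82 and 0.83. The low S100b and Cxcl12 of control replicate 4 was read by 2 separate probes each, at -0.59 and -0.75 from the mean of the 8 arrays for S100b and -0.51 and -0.76 for Cxcl12. The other S100b probe, at -0.75, was dim, with processed signals between 20.9 and 46.3, though well above background on all 8 arrays. Both probes of a gene share the RNA, the array and the scaling, so this bears on the probes and not on the dams.

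Between genes, 28 pairs of the 8 measured members were correlated over the 8 arrays, and 22 were positive (median r 0.26, from -0.30 to 0.81). The highest values joined S100b and Cxcl12 (r = 0.81, exact permutation p = 0.024, rho 0.60, p = 0.13), S100b and Sox2 (r = 0.75, p = 0.023, rho 0.71, p = 0.058), Sox2 and Cxcl12 (r = 0.74, p = 0.029, rho 0.64, p = 0.096) and Sox2 and Klf4 (r = 0.72, p = 0.049, rho 0.79, p = 0.028). Adjusted over the 28 pairs, 0 passed by Pearson's r (smallest adjusted p = 0.27) or by Spearman's rho (smallest 0.39), with 4 pairs at an unadjusted p under 0.05 by r. Without control replicate 4 alone, r was 0.39 for S100b and Cxcl12, 0.59 for S100b and Sox2 and 0.57 for Sox2 and Cxcl12. On the remaining arrays the highest values were 0.89 for Sox2 and Klf4, 0.80 for Cxcl12 and Klf4 and 0.80 for S100b and Fabp7. Without control replicates 1 and 4, the farthest for S100b, r fell to 0.20 for S100b and Cxcl12 and to 0.49 for S100b and Sox2. Without TCDD replicate 4 and control replicate 4, the farthest for Sox2, r was 0.71 for Sox2 and Cxcl12 and 0.91 for Sox2 and Klf4. Without the 2 arrays farthest for Cxcl12, r was 0.48 for Sox2 and Cxcl12. Without the 2 arrays farthest for Klf4, r was 0.52 for Sox2 and Klf4. Anxa1 and Vim followed none of the other genes closely, with r between -0.30 and 0.40. Each slide and group holds 4 arrays, too few for a correlation within it. After each group's mean was subtracted, with control replicate 4 kept, r was 0.84 for S100b and Cxcl12 and 0.78 for S100b and Sox2. It was 0.73 for Sox2 and Cxcl12 and 0.85 for Sox2 and Klf4.

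**Figure D3:**
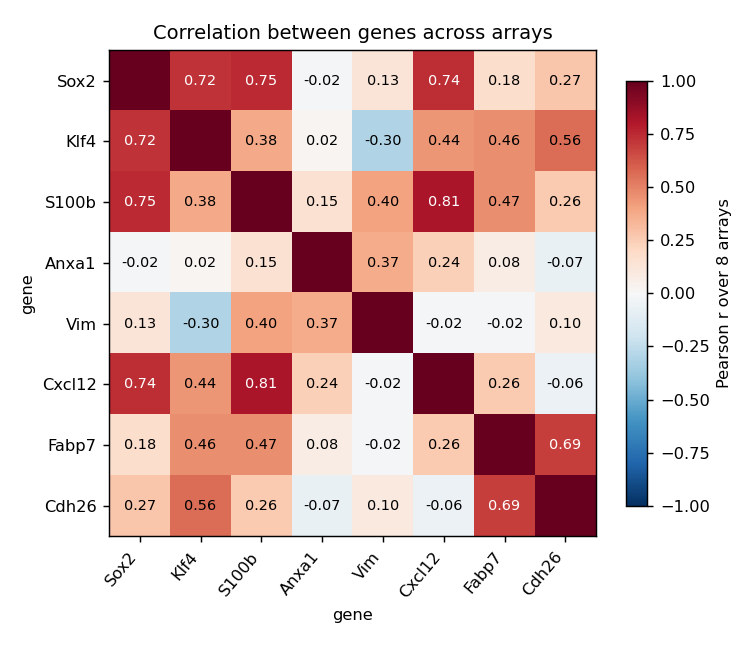
Pearson's r over the 8 arrays for each pair of the 8 measured genes, from -1 (blue) to 1 (red). Over all 8 arrays S100b, Sox2 and Cxcl12 form the group of highest values (0.74 to 0.81), and 0 of the 28 pairs passed after adjustment. Sox2 and Klf4 stand at 0.72 and Fabp7 and Cdh26 at 0.69. Without control replicate 4 the values among S100b, Sox2 and Cxcl12 were 0.39 to 0.59.

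Markers of other cells moved between arrays too. On control replicate 4 the 10 stromal and pericyte markers averaged -0.50 relative to the mean of the 8 arrays. The 8 measured posterior lobe and neural markers averaged -0.54. These means were the lowest of the 8 arrays for both lists, beside -0.59 for S100b, -0.51 for Cxcl12 and -0.26 for Sox2. Within the stromal and pericyte list, Col1a1, Col1a2, Col3a1, Dcn, Lum and Pdgfra were each at their lowest on control replicate 4, and Ogn was also low. Pdgfrb, Acta2 and Rgs5 were not low on that array. The 4 measured corticotroph and melanotroph markers were also lowest there, at -0.35, and the erythrocyte markers stood at 0.22, against -0.73 to -0.63 on the other control arrays. Also lowest there were the mean of the 8 measured members, at -0.19, and the folliculostellate secreted factor list described below, at -0.18. The transcription factor and surface lists described below, at -0.02 and -0.06, were lower on other arrays. The stromal list spanned -0.19 to 0.18 on the TCDD arrays and -0.50 to 0.20 on the control arrays, and the posterior lobe list -0.44 to 0.06 on TCDD arrays and -0.54 to 0.46 on control arrays. Gfap, Mog and Col25a1 of the posterior lobe list did not pass the filter. The 5 measured erythrocyte markers, which included hemoglobin genes, were 5 of 5 higher (9793 of all 17361 genes), with a median difference of 0.77. At an unadjusted p under 0.05 there were 5 of 5 (10.7% of all genes), 1 had groups that did not overlap (7.10% of all genes), and 0 passed after adjustment in limma. Their mean deviation from the 8 arrays spanned -0.0011 to 0.72 on TCDD arrays and -0.73 to 0.22 on control arrays. The 6 measured endothelial markers spanned -0.16 to 0.15 on TCDD arrays and -0.09 to 0.12 on control arrays. The part of these cells in the values of S100b, Cxcl12 and Vim was not tested.

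**Figure D4:**
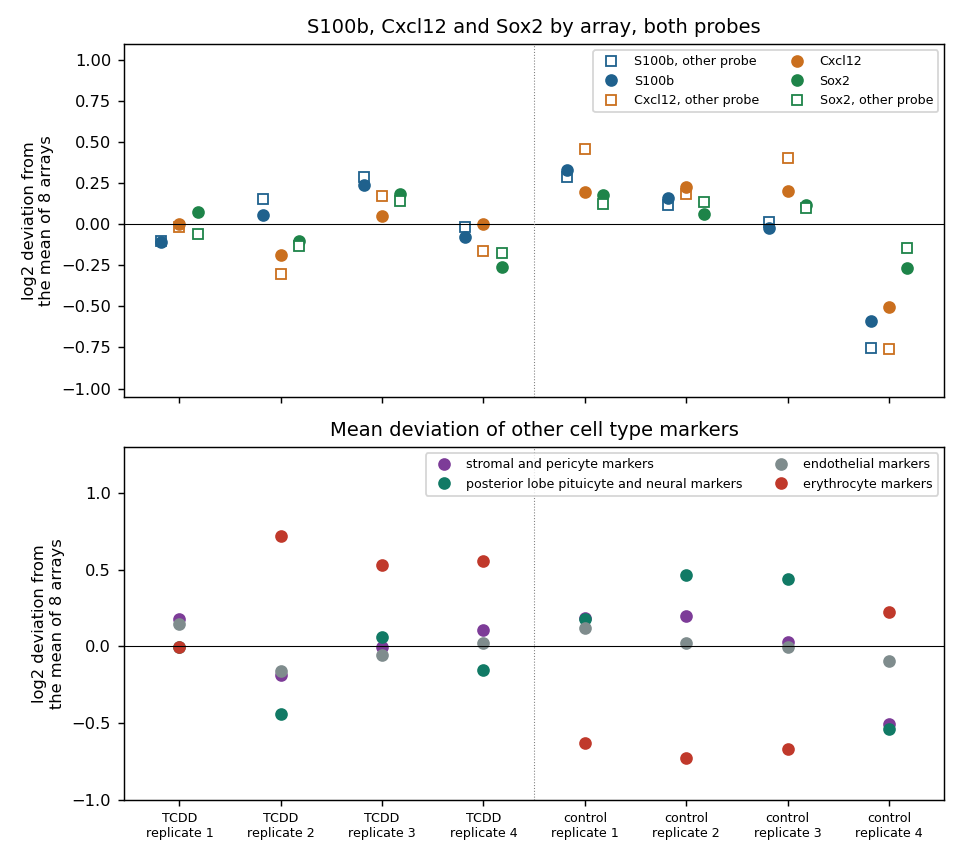
Log2 deviation from the mean of the 8 arrays, for both probes of S100b, Cxcl12 and Sox2 (upper panel) and for the mean of 4 lists of other cell type markers (lower panel), by array. Control replicate 4 is low for S100b and Cxcl12 on both probes (-0.51 to -0.76) and for the means of the stromal and posterior lobe lists (-0.50 and -0.54).

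The genes most like each member, by the correlation of deviations from the group means over the 8 arrays among 12461 genes with a symbol, are given as a description. They were Tmem80, Plxdc2 and Aplp1 for S100b (r from 0.98 to 1.00), Adh1c, Tcf7l2 and Tdrd7 for Sox2 (0.96 to 0.98) and Casz1, Mprip and F5 for Klf4 (0.97 to 0.98). For Cxcl12 they were Calml4, Rbm24 and Tmem164 (each 0.98), for Anxa1 Zfp867, Cstf2t and Ctnnb1 (0.97 to 0.99), and for Vim Pimreg, Dscc1 and Krt19, a keratin that was also on the lists below (0.97 each). For Fabp7 they were Arhgef26, Scn2a and Eps8l2 (0.96 to 0.98) and for Cdh26 Kcnj14, Pdhx and Ntm (each 0.98). Each value is the highest of many over 8 arrays that share their RNA, slide and scaling. No member was among the 3 genes most like another.

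Among 3 lists of other genes of these cells and 1 list of receptors and partners of the members' products there was no call either. Of the 71 genes in these 4 lists 63 were measured, 39 higher and 24 lower, with a median difference of 0.05 and 0 past the threshold in limma (smallest adjusted p = 0.32). At an unadjusted p under 0.05 there were 3 (4.76%, against 10.7% of all genes), and 1 had groups that did not overlap (1.59%, against 7.10%).

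Of 17 measured stem cell transcription factors and Notch, Wnt and Hippo genes, 10 were higher and 7 lower, with a median of 0.05. Sox11, a progenitor factor of the same family as Sox2, differed by 0.28 (SE 0.12, limma, adjusted p = 0.48). The receptor Notch3 differed by 0.22 (SE 0.11) and Hey1, a Notch target, by 0.17 (SE 0.10). Notch2 and Wwtr1 did not pass the filter.

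Of 18 measured surface, junction and filament genes 10 were higher and 8 lower, with a median of 0.03. Itga6, the integrin alpha 6 subunit that anchors epithelial cells to laminin, was the 1 gene whose groups did not overlap. It stood at -6.40, -7.54, -6.96 and -6.31 on the TCDD arrays and at -5.94, -6.12, -5.54 and -6.02 on the control arrays, and was well above background on 1 of 4 TCDD and 3 of 4 control arrays. Most TCDD values lay below the lowest level that counted as well above background on their array, so no fold is given (limma, adjusted p = 0.33). Cd24, a surface protein of progenitors, differed by 0.30 (SE 0.13, adjusted p = 0.47) and the tetraspanin Cd9 by 0.21 (SE 0.11, adjusted p = 0.55).

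Of 17 measured secreted factors, enzymes and transporters 10 were higher and 7 lower, with a median of 0.03. Mia, a small secreted protein, stood at -3.15, -2.92, -2.89 and -2.51 on the TCDD arrays and at -2.54, -2.34, -2.30 and -2.50 on the control arrays. Only TCDD replicate 4 lay within the control range, and the difference of -0.45 (SE 0.13) did not pass (limma, adjusted p = 0.32). Glul, the glutamine synthetase of glia, differed by 0.25 (SE 0.16). Gfra2, a co-receptor of neurturin, differed by 0.12 (SE 0.07), and by -0.27 (SE 0.15) on its other probe. Il6, Nos1 and Ret did not pass the filter.

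Of 11 measured receptors and partners of the members' products 9 were higher and 2 lower, with a median of 0.14, the highest of the 4 lists. The receptors of Cxcl12 and S100b were named after their values were seen. Their differences were 0.30 (SE 0.21, limma, adjusted p = 0.68) for Cxcr4 and 0.24 (SE 0.16, adjusted p = 0.66) for Ackr3, also a receptor of Cxcl12. Ager, a receptor of S100b, differed by -0.04 (SE 0.12, adjusted p = 0.94). S100a11 and Anxa2, relatives of S100b and Anxa1, differed by 0.22 (SE 0.09, adjusted p = 0.45) and 0.14 (SE 0.07, adjusted p = 0.51). Fpr1, a formyl peptide receptor of the kind through which annexin A1 acts, differed by -0.41 (SE 0.25). It was well above background on 2 of 4 TCDD and 4 of 4 control arrays, and its lowest level was -6.74, on TCDD replicate 4. Fpr2 did not pass the filter.

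**Figure D5:**
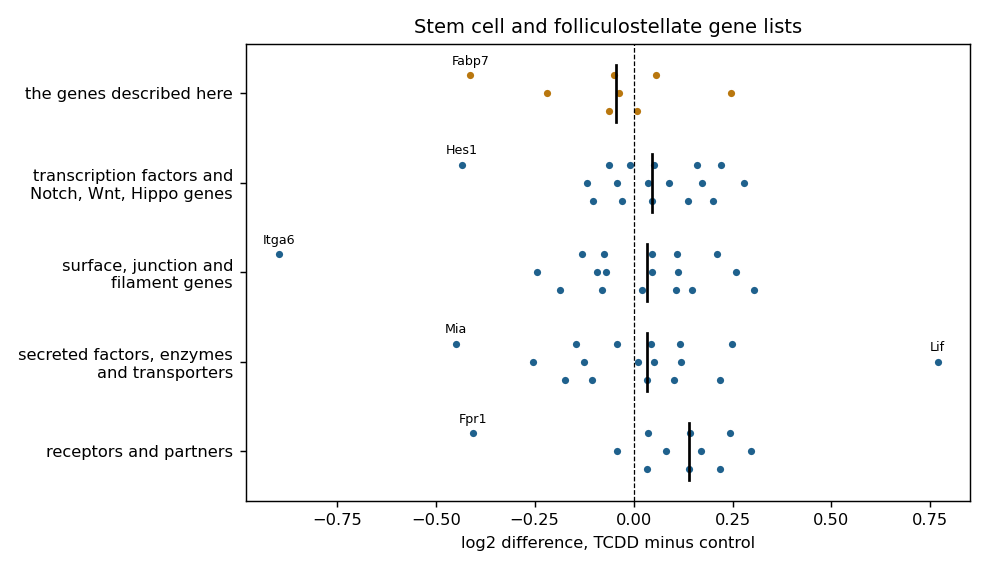
Log2 difference, TCDD minus control, for each measured gene (1 point), with the median of each list as a black bar; names are given beyond 0.4 in size, and Itga6 is drawn at values that on most TCDD arrays were not well above background. Medians lie between -0.04 and 0.14, and 0 of the points passed an adjusted p of 0.05.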

How the data were processed

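Total RNA of the pituitary of lactating rats (4 samples of TCDD-exposed dams, 4 of control dams) was hybridised to single-colour Agilent arrays. Per the file headers, the authors scanned each array and extracted spot intensity with Agilent Feature Extraction 10.7.1.1, and the processed intensity is background-subtracted. The deposited value table holds linear intensity of the same arrays with 1 common median of 56.3 per array, and served as an alternative. What was done between scanner and table is not given in the sources used here. Probe coordinates are on rn4, per the file headers.

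Of the scanner files, log2 of the processed signal minus the array's 75th percentile was used. Control spots and spots marked as outliers were left out, and spots of a probe were averaged. A probe was kept if well above background on at least 4 of 8 arrays (19950 of 30367 probes), and the brightest kept probe stood for its gene (17361 genes). Accessions and symbols were matched to RefSeq (GRCr8) for names only. The groups were compared with limma 3.58.1 in R 4.3.3, adjusted by Benjamini-Hochberg over all genes at 0.05, and for single genes by exact permutation of the group labels (two-sided, 70 possible assignments, smallest p 0.029). Correlations used all 40320 permutations. The fit was tested on simulated data. Named genes are the 9 chosen, up to 3 genes per list with the smallest unadjusted p, and the 3 genes most like each member. The members and lists were chosen with earlier results of these data known. Replicate numbers were not used to pair arrays, because deviations from the group means correlated at -0.02 to -0.10 between same-numbered arrays. The number of arrays limits the precision. Some genes of the lists that did not pass the filter are not reported here by name.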

Additional observations from a re-analysis of the deposited data

Results flagged for a closer look

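Cxcl12 on control replicate 4 stood apart from its group. It was at -1.27 where the other 3 control arrays were between -0.56 and -0.53, and the gap to its nearest neighbour was 0.960 of the range of the group, above Dixon's 95% limit for 4 values. Of 18 groups examined in this way, 1 passed the limit, where 0.9 are expected by chance; the 18 include the 2 groups of Sox9, which was not well above background. The other Cxcl12 probe was lowest on the same array, at -2.99, but with a gap of 0.773 of the range it did not pass, while the other Sox2 probe, not among the 18, was lowest there with a gap of 0.858 and did. The means of the stromal and posterior lobe lists were also lowest there (-0.50 and -0.54), although Pdgfrb, Acta2 and Rgs5 of the stromal list were not low. So were the corticotroph and melanotroph list (-0.35) and the folliculostellate secreted factor list (-0.18). The part of these cells in the value of Cxcl12 was not tested.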

How the results depend on the processing

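Over 18 alternatives per gene, 10 of which kept all arrays, 0 of the 8 measured genes passed (smallest adjusted p = 0.30, Cxcl12 without control replicate 4), and 0 other genes of the 4 lists passed. Pairs of members were run under 16 alternatives, without the filters on dim probes, the trend and the replicate block, and 0 passed. Anxa1 turned to -0.0304 with median centring and -0.0086 with the deposited table, and Cdh26 to 0.0468 with normexp and quantile normalization. The median of the transcription factor list moved to -0.0101 with normexp, and that of the surface list to -0.0122 with the deposited table. Fabp7 ranged from -0.47 to -0.10 with all arrays kept. With 1 array left out at a time the ranges were -0.13 to 0.18 for S100b, -0.15 to 0.0278 for Sox2, 0.16 to 0.32 for Vim, -0.24 to 0.0037 for Cxcl12, -0.70 to -0.05 for Fabp7, -0.30 to -0.18 for Klf4, -0.10 to 0.12 for Anxa1 and -0.23 to 0.0785 for Cdh26. The surface list's median then ranged from -0.0221 to 0.0314, the receptor list's from 0.0530 to 0.14 and the secreted list's from -0.0336 to 0.0838. The secreted list's median was also below 0 with median centring, at -0.0053. The cause was not tested. Over all genes, 14 calls became 1 with quantile normalization or the deposited table, 0 with normexp, 9 with median centring and 4 with an intensity trend and robust estimation. The share of lower genes was 55.7% with median centring, against 43.6%. With the replicate block, 0 genes and 0 members passed. An array's deviations from its group mean correlated best with those of its own number in 0 of 4 pairs. Left-out arrays gave 0 to 11 calls.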
